A study of Mus musculus with 22 samples.

Results

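The genes described here encode the subunits of NF-kB and proteins that regulate it. The subunit genes are Nfkb1, Nfkb2, Rel, Rela and Relb. The others are the inhibitors Nfkbia, Nfkbib and Nfkbie, the nuclear IkB-like protein Nfkbiz, and the ubiquitin-editing brake Tnfaip3. All of these genes were chosen by name, with earlier results of these data known, as 10 of the 55011 in the count table. All 10 passed the filter on low counts in every fit. The libraries are bulk RNA-seq of regulatory T cells (Tregs) taken by sorting Foxp3-YFP+ cells through a pair of sorts, 1000 cells a library, from the visceral fat of male C57BL/6 Foxp3.Cre-YFP mice at ZT0, when the lights come on. The labels call the cells WT or KO for Bmal1 (gene Arntl), the clock activator, and do not say which stretch of the gene was removed. The Foxp3.Cre-YFP allele is shared by all groups, WT included, and it puts Cre and the sorting marker in Foxp3-expressing cells.

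There were 8 groups. WT and KO cells came from mice on lean diet at 18 weeks of age (3 libraries each), from mice with 4 weeks of high fat diet, also at 18 weeks of age (3 each), and from mice with 16 weeks of high fat diet at 30 weeks of age (3 each). The high fat diet followed 14 weeks of lean diet, so at 16 weeks the length of the diet and age cannot be told apart. In the last pair of groups, WT or KO Tregs were recovered 9 weeks after adoptive transfer from mice 20 weeks old (2 libraries each), and the labels do not give the host's own cells or the diet of these mice. The labels do not say that replicate libraries came from separate animals, so the p-values below measure only the spread between libraries, which may be technical.

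Total counts per library were 1955940 to 3467019 in the 18 diet libraries and 4814337 to 5990319 in the 4 transfer libraries. Levels are given in CPM, that is, as counts relative to the TMM-adjusted size of the library, and 3 counts correspond to 0.542 to 1.60 CPM, far under the lowest level of any of the 10 genes. Foxp3, the factor that defines Tregs, was present in all libraries at 405 to 688 CPM. Arntl, counted over the whole gene, had a log2 fold change of 0.22 ± 0.10 (SE, edgeR adjusted p = 0.652) over the 3 diets. Counts over a whole gene do not check a deletion of part of it, so this says nothing of the labels. Markers of other cells were low but not absent, and their values are given beside the results they move with.

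NF-kB proteins bind DNA as dimers and wait in the cytoplasm while bound to IkB proteins. In the canonical route, signals from the antigen receptor, IL-1 family receptors or TNF receptors lead to phosphorylation and loss of IkBα, the product of Nfkbia, and release dimers built from the products of Rela, Rel and Nfkb1. In the non-canonical route, receptors such as the lymphotoxin β receptor stabilise the kinase encoded by Map3k14, the Nfkb2 precursor is trimmed, and it enters the nucleus with RelB. Several of the genes are themselves targets of NF-kB, Nfkbia and Tnfaip3 being the textbook feedback inhibitors. In Tregs the Rel and Rela subunits are known to be needed for development and for the activated state.

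The promoters of Nfkbia and Nfkb2 are shown because these genes moved in opposite directions in the main diet comparison below while both hold matches to the NF-kB consensus. Each line gives the 250 bases before the RefSeq start site (GRCm38.p6), read 5′ to 3′ on the gene's own strand, and the capitals mark matches to the kB consensus decamer on either strand, with overlapping matches merged.
Nfkbia (chr12:55492648-55492897, minus strand): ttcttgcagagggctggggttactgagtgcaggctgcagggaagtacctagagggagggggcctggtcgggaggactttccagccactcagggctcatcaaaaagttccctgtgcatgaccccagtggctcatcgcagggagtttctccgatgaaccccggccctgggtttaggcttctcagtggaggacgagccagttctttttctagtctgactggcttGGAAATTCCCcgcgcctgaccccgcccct
Nfkb2 (chr19:46304487-46304736, plus strand): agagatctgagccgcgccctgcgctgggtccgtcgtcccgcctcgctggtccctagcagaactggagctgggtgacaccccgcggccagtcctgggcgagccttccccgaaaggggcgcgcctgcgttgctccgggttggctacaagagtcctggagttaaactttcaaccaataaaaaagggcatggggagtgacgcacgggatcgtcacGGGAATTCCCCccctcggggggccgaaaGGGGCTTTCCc
In Nfkbia the match lies at positions -29 to -20 from the start site and reads on the opposite strand. This Nfkb2 start site is the first of 3 in the table. There matches overlap on both strands at -39 to -29, and another lies at -11 to -2. Of the 10 genes, 7 were in the RefSeq promoter table, and 5 of these 7 (Nfkb2, Nfkbia, Nfkbie, Rel and Tnfaip3) held the decamer within the 250 bases before at least 1 start site, against 4.46% of the 27025 genes in the table. Rela and Nfkbib held no match there. The looser pattern, GGG, then any 5 bases, then CC, on either strand, was in 6 of the 7, against 48.7% of all genes. A match of letters is a description and not a shown binding site.

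All 10 genes were measurable in each of the 22 libraries, and their levels differed widely once exon length was taken into account. Positions are in GRCm38 (mm10) with gene models from GENCODE M21. Nfkbia (chr12:55489410-55492647, minus strand) had the highest level per length, 1788 CPM per kb of exon as the mean of 22 libraries. Tnfaip3 (chr10:19000910-19015657, minus) followed with 365 CPM per kb, and Nfkbiz (chr16:55811375-55838899, minus), whose protein acts in the nucleus as a cofactor, with 185 CPM per kb. The subunit genes were lower per length. Rela (chr19:5637483-5648130, plus), which carries a transactivation domain, stood at 72.5 CPM per kb, Nfkb2 (chr19:46304320-46312385, plus) at 40.8, and Rel (chr11:23736847-23770970, minus), the subunit most tied to lymphocytes, at 35.7 CPM per kb. Relb (chr7:19606217-19629438, minus) stood at 24.7 CPM per kb and Nfkb1 (chr3:135584655-135691547, minus) at 23.7. Length here is that of all annotated exons merged, 12.061 kb for Nfkb1, and the order depends on it. Without length, Nfkb1 had the highest mean of the subunit genes, 286 CPM against 267 for Rel and 223 for Rela. The other inhibitors were Nfkbib (chr7:28758251-28767512, minus) at 40.3 and Nfkbie (chr17:45555703-45563169, plus) at 26.1 CPM per kb. Some genes share exons or span with others: Nfkb2 overlaps Psd and AC114539.1 on the opposite strand, Nfkbib overlaps Sirt2 and Ccer2 on the opposite strand, and Nfkb1 overlaps Gm43430 on its own strand. The library kit does not mark strand, so reads from the shared stretches cannot be assigned with certainty.

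The genes differed in how far their group means lay apart. Between the group with the highest and the group with the lowest mean CPM, Nfkbia spanned 3.08-fold, Nfkb1 2.90-fold, Nfkbiz 2.77-fold and Relb 2.28-fold. Rela spanned 1.19-fold and Nfkbib 1.26-fold, with the other 4 genes between 1.46-fold and 1.80-fold. For Nfkbia, Nfkbiz and Nfkb1 the highest means were in transferred KO cells, then in transferred WT cells, then in lean KO cells, and the 2 lowest were the 16-week groups. For Relb the order ran the other way, with the highest mean in 16-week KO cells and the lowest in transferred cells.

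**Figure D1:**
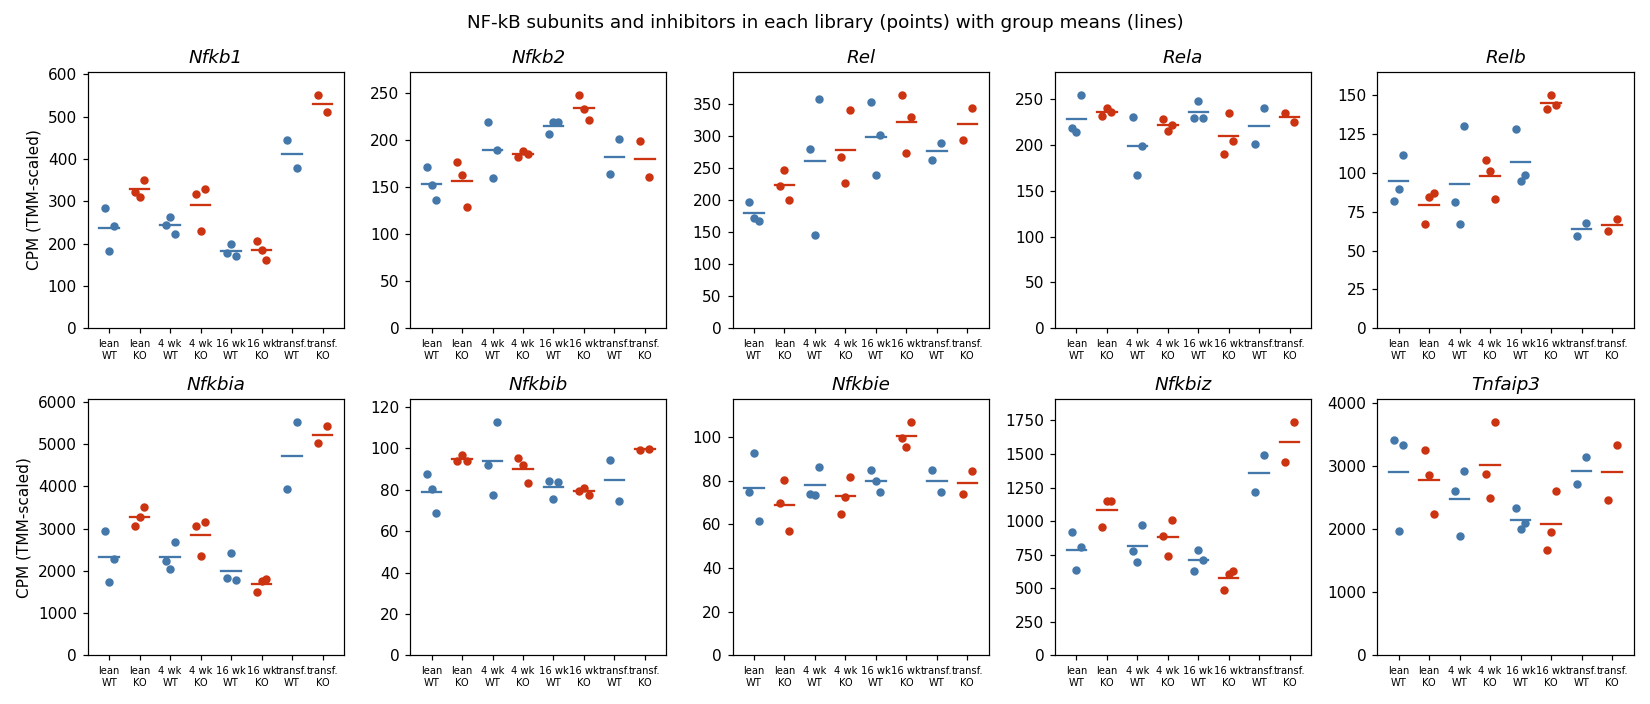
Level of each of the 10 genes (y axis, TMM-scaled CPM from 0) in each library (points) of the 8 groups on the x axis, WT in blue and KO in red, with lines at group means. Nfkbia, Nfkbiz and Nfkb1 are highest in transferred cells and lowest in the 16-week groups, Relb is highest in 16-week KO cells, and Rela is nearly level.

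Most neighbours in these orders overlapped. In Nfkbia the transferred WT libraries lay above all lean KO libraries, and all other adjacent groups overlapped. In Nfkb1 the transferred KO libraries lay above the transferred WT libraries, which lay above the lean KO libraries, and the rest overlapped with their neighbours. In Nfkbiz the breaks were between transferred WT and lean KO and between 16-week WT and 16-week KO. In Relb and Nfkb2 the only break between neighbours was that 16-week KO libraries lay above 16-week WT libraries. For Rela and Tnfaip3 no adjacent groups were apart.

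The comparison of 16 weeks of high fat diet with lean diet in KO cells asks what differs after long high fat feeding in fat Tregs labelled as lacking Bmal1. Here the inhibitor gene Nfkbia, the IkB-like gene Nfkbiz and the subunit gene Nfkb1 were lower after 16 weeks. The non-canonical pair Nfkb2 and Relb was higher. The test was edgeR's quasi-likelihood F test over all 18 diet libraries, with Benjamini-Hochberg adjustment over 11698 genes and a threshold of 0.05. Of all genes tested, 5.95% passed, 2.36% as higher and 3.59% as lower, and of the 10 genes 2 passed as higher and 3 as lower. In bulk RNA, fewer cells of a type that expresses a gene and less of its RNA per cell cannot be told apart.

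Nfkbia was at 3060.2, 3267 and 3515 CPM in the 3 lean KO libraries and at 1512, 1768 and 1819 CPM in the 3 KO libraries after 16 weeks. Every 16-week library was below every lean library. The means were 3281 ± 228 CPM and 1699 ± 165 CPM (SD, n = 3), a log2 fold change of -0.96 ± 0.16 (SE, edgeR adjusted p = 0.00137). Nfkbiz stood at 958, 1151 and 1148 CPM in lean KO libraries and at 486, 603 and 631 CPM after 16 weeks. Its groups were also apart, with a log2 fold change of -0.93 ± 0.15 (SE, edgeR adjusted p = 0.00102). Nfkb1, whose product is trimmed to a DNA-binding subunit of canonical dimers, was at 322, 311 and 351 CPM in lean KO and 205, 186 and 161 CPM in 16-week KO libraries. The ranges did not meet, and the log2 fold change was -0.84 ± 0.16 (SE, edgeR adjusted p = 0.00253). These 3 calls held when any 1 of the 6 libraries was left out, with adjusted p-values of 0.00406 to 0.0144 for Nfkbia, 0.00188 to 0.0115 for Nfkbiz and 0.00712 to 0.0254 for Nfkb1. The number of all genes called fell by over 1.5 times, from 696 to 373 at the lowest, without lean KO library 1, lean KO library 2, 16-week KO library 1 or 16-week KO library 3.

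Relb, the partner of the processed Nfkb2 product, moved the other way. It was at 67.1, 84.6 and 87.3 CPM in lean KO libraries and at 141, 150.1 and 144 CPM after 16 weeks, with no overlap. The log2 fold change was 0.86 ± 0.20 (SE, edgeR adjusted p = 0.0123), and without lean KO library 1 the adjusted p was 0.0750. Nfkb2 was at 177, 162 and 129 CPM in lean KO and at 247, 232 and 221 CPM in 16-week KO libraries. All 16-week values were above all lean values, and the log2 fold change was 0.58 ± 0.13 (SE, edgeR adjusted p = 0.0116). That call was lost without lean KO library 3 (adjusted p = 0.0644) or without 16-week KO library 1 (adjusted p = 0.0552).

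The other 5 genes did not pass. Nfkbie, an inhibitor that binds mainly Rel- and Rela-containing dimers, came closest, at 69.7, 80.3 and 57.0 CPM in lean KO and 99.3, 95.4 and 107 CPM in 16-week KO libraries. Its log2 fold change was 0.54 ± 0.16 (SE, edgeR adjusted p = 0.0503), and with DESeq2 or with RLE scaling in edgeR it fell under the threshold. Rel had 0.53 ± 0.23 (adjusted p = 0.190), Tnfaip3 -0.43 ± 0.20 (adjusted p = 0.247), Nfkbib -0.27 ± 0.14 (adjusted p = 0.305) and Rela -0.18 ± 0.12 (adjusted p = 0.464), all log2 fold changes with SE. Counting libraries without a test, 4 of the 10 genes had all 16-week KO values above all lean KO values (Nfkb2, Rel, Relb and Nfkbie) and 4 had them all below (Nfkb1, Nfkbia, Nfkbib and Nfkbiz), where 12.8% and 12.5% of all genes did.

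In WT cells the same diet comparison called none of the 10 genes, with 0.0855% of all genes past the threshold. Nfkbia was at 2943, 1732 and 2287 CPM in lean WT and at 1828, 2424 and 1777 CPM in 16-week WT libraries. These ranges overlapped, and the log2 fold change was -0.21 ± 0.16 (SE, edgeR adjusted p = 0.767). Nfkbiz had -0.15 ± 0.15 (adjusted p = 0.828), Nfkb1 -0.37 ± 0.16 (adjusted p = 0.511) and Relb 0.18 ± 0.20 (adjusted p = 0.841). Nfkb2 was at 172, 152 and 136 CPM in lean WT and at 206, 219 and 219 CPM in 16-week WT libraries. All its 16-week values were above the lean ones, as in KO cells and as for 7.08% of all genes in WT, with a log2 fold change of 0.49 ± 0.13 (adjusted p = 0.186). Rel was likewise apart, from 197, 173 and 167 CPM to 353, 239 and 301 CPM, a log2 fold change of 0.73 ± 0.23 (adjusted p = 0.256).

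**Figure D2:**
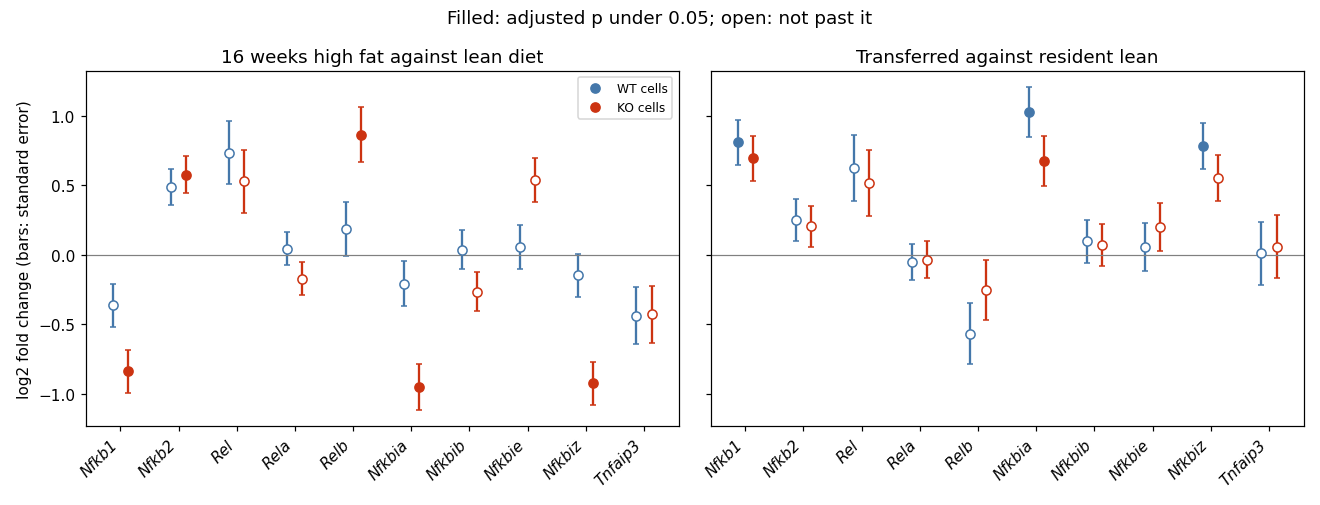
Log2 fold change (y axis, bars are the standard error) of each of the 10 genes on the x axis for 16 weeks of high fat diet against lean diet (left) and for transferred against resident lean cells (right), WT in blue and KO in red, filled where the adjusted p was under 0.05. On the left 5 KO points and no WT point are filled, and on the right 3 WT and 2 KO points are filled.

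Whether the diet response differed between genotypes was tested directly, as an interaction in the same fit. No gene passed (0% of 11698), and 993 genes (8.49%) had an unadjusted p under 0.05. DESeq2 called 26 genes, none of them among the 10. The response in KO minus that in WT cells was -0.78 ± 0.22 on the log2 scale for Nfkbiz (SE, edgeR adjusted p = 0.314), -0.75 ± 0.23 for Nfkbia (adjusted p = 0.337) and, for Nfkb1, -0.47 ± 0.22 (adjusted p = 0.579). For Relb the difference was 0.68 ± 0.28 (adjusted p = 0.507), and for Nfkb2 0.09 ± 0.19 (adjusted p = 0.931). So the calls in KO cells and their lack in WT cells do not show that the genotypes responded differently. Without the filter on low counts, Nfkbia and Nfkbiz passed this test, where 258 genes passed in all against 0 with the filter.

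Between 4 and 16 weeks of high fat diet in KO cells, the same 3 genes were lower at 16 weeks, where 1.64% of all genes passed (1.25% as lower). Nfkbia was at 3054, 2348 and 3149.9 CPM in 4-week KO libraries, all above the 16-week values given above (9.86% of all genes lay so), with a log2 fold change of -0.75 ± 0.16 (SE, edgeR adjusted p = 0.0218). Nfkb1 was at 317, 229 and 329 CPM at 4 weeks, also all above, with -0.67 ± 0.15 (adjusted p = 0.0294). Nfkbiz was at 890.3, 744 and 1009.6 CPM at 4 weeks, again all above, with -0.62 ± 0.15 (adjusted p = 0.0410). These 3 calls rest on the full set of libraries, and that of Nfkb1 was also lost with library size only as the scaling (adjusted p = 0.0577). Each of them was lost when any of 5 of the 6 libraries was left out, with adjusted p-values up to 0.136 for Nfkbia, 0.157 for Nfkb1 and 0.219 for Nfkbiz, and was kept only without 4-week KO library 2. In WT cells no gene of the table passed in this comparison with edgeR (884 had an unadjusted p under 0.05) and 21 passed with DESeq2, none of them among the 10, and Nfkb1 had a log2 fold change of -0.40 ± 0.15 (adjusted p = 0.585).

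After 4 weeks of high fat diet against lean diet none of the 10 genes passed, nor did any other gene in WT or KO cells with edgeR (0% in each, with 654 and 836 genes at an unadjusted p under 0.05). DESeq2 called 0 genes in WT and 13 in KO cells, none among the 10. In KO cells Nfkbia had a log2 fold change of -0.21 ± 0.16 (SE, edgeR adjusted p = 0.872), Nfkbiz -0.30 ± 0.15 (adjusted p = 0.731) and Relb 0.30 ± 0.20 (adjusted p = 0.845). Nfkb2 libraries were all higher and Rela libraries all lower than in lean KO cells, as were 6.45% and 6.55% of all genes. In WT cells all 10 genes overlapped between 4 weeks and lean.

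The balance of the 2 precursor genes can be read within a library, where scaling has no part. The number of Nfkb2 counts per Nfkb1 count was 0.548, 0.522 and 0.366 in lean KO libraries and 1.20, 1.25 and 1.37 in 16-week KO libraries. In WT it was 0.604, 0.836 and 0.563 on lean diet and 1.16, 1.09 and 1.28 after 16 weeks. All 6 libraries of the 16-week groups were thus above 1 and above all 16 other libraries, in both genotypes. The Relb count per Rela count was 0.289, 0.351 and 0.370 in lean KO and 0.740, 0.638 and 0.703 in 16-week KO libraries, which did not overlap. In WT it was 0.375, 0.420 and 0.438 on lean diet and 0.558, 0.381 and 0.430 after 16 weeks, which did overlap. The 16-week KO libraries were not apart from all others in this ratio, since 4-week WT library 3 was at 0.654. The size of such a ratio depends on the lengths of both genes, so only its change between groups is read here. Both ratios recombine counts of genes already described above and were not tested. In WT cells at 16 weeks against lean diet, neither gene of the first ratio passed (edgeR adjusted p = 0.511 for Nfkb1 and 0.186 for Nfkb2). How many other pairs of genes lay so was not counted.

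**Figure D3:**
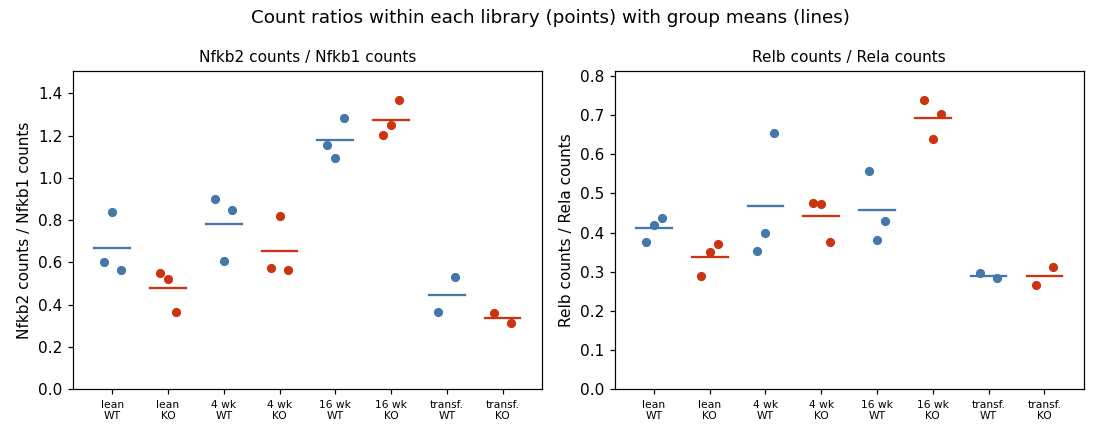
Nfkb2 counts per Nfkb1 count (left) and Relb counts per Rela count (right) on y axes from 0, in each library (points) of the 8 groups on the x axis, WT in blue and KO in red, with lines at group means. The 6 libraries from 16 weeks of high fat diet lie highest on the left. On the right the 16-week KO libraries lie at 0.638 to 0.740, and 4-week WT library 3 lies among them at 0.654.

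The direct comparison of KO with WT cells called none of the 10 genes under any diet, over the diets or after transfer, against 0.0427% of all genes on lean diet, 0.0684% at 4 weeks, 0.0427% at 16 weeks, 0.180% for the average over the 3 diets and 0.171% after transfer. On lean diet Nfkbia was at 2321 ± 606 CPM in WT and 3281 ± 228 CPM in KO libraries (SD, n = 3), a log2 fold change of 0.50 ± 0.16 (SE, edgeR adjusted p = 0.471). Nfkb1 had 0.48 ± 0.15 (adjusted p = 0.471) and Nfkbiz 0.47 ± 0.15 (adjusted p = 0.483). All lean KO libraries were above all lean WT libraries for 5 of the 10 genes (Nfkb1, Rel, Nfkbia, Nfkbib and Nfkbiz), as were 6.79% of all genes. A p above the threshold does not show that WT and KO cells were alike. Without the filter on low counts, Nfkbia and Nfkbiz passed on lean diet, where 135 genes passed in all against 5 with the filter.

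At 16 weeks of high fat diet the KO libraries lay above the WT libraries for Nfkb2, Relb and Nfkbie, as did 6.67% of all genes, and below them for Nfkbiz, as did 7.58%. Relb was at 107 ± 18.3 CPM in WT and 145 ± 4.63 CPM in KO libraries (SD, n = 3), a log2 fold change of 0.43 ± 0.19 (SE, edgeR adjusted p = 0.511). Nfkbiz, which had stood higher in KO on lean diet, was at 632, 786 and 713 CPM in WT against 486, 603 and 631 CPM in KO libraries, the nearest of which all but met, with -0.31 ± 0.15 (adjusted p = 0.556). At 4 weeks all 10 genes overlapped between genotypes. For the average over the diets the largest log2 fold change was that of Nfkb1, 0.25 ± 0.09 (SE, edgeR adjusted p = 0.465). After transfer Nfkb1 was at 446 and 379.5 CPM in WT and 551 and 510.2 CPM in KO libraries, with 0.35 ± 0.12 (adjusted p = 0.673). It, Rel and Nfkbib were higher in both KO than in both WT transfer libraries, as were 18.8% of all genes.

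Transferred Tregs were compared with resident Tregs of lean mice in a fit over all 22 libraries. The transferred cells had more Nfkbia, Nfkb1 and Nfkbiz RNA in WT. In WT 10.5% of 12523 genes passed, 4.63% as higher, and 3 of the 10 genes passed as higher. Nfkbia was at 3928 and 5515 CPM in the 2 transferred WT libraries, above all lean WT libraries as were 20.0% of all genes, with a log2 fold change of 1.03 ± 0.18 (SE, edgeR adjusted p = 0.000935). Nfkb1 had 0.81 ± 0.16 (adjusted p = 0.00287) and Nfkbiz 0.78 ± 0.17 (adjusted p = 0.00439). Without transferred WT library 2 the adjusted p of Nfkbiz was 0.0804. Relb was lower in both transferred WT libraries, 59.4 and 67.9 CPM, than in any lean WT library, as were 20.8% of all genes, with -0.57 ± 0.22 (adjusted p = 0.0981).

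In KO cells 3.35% of genes passed in the same comparison, 1.21% as higher, and 2 of the 10 genes passed as higher. Nfkb1 had a log2 fold change of 0.69 ± 0.16 (SE, edgeR adjusted p = 0.0181), with 551 and 510.2 CPM against 322, 311 and 351 CPM on lean diet. Nfkbia had 0.67 ± 0.18 (adjusted p = 0.0432), with 5039.7 and 5419 CPM in transferred KO libraries, both above all lean KO libraries as were 17.1% of all genes. Nfkbiz had 0.55 ± 0.17 and missed the threshold (adjusted p = 0.0704). Leaving out 1 of the 5 libraries ended the Nfkbia call each time (adjusted p 0.0673 to 0.241). The Nfkb1 call remained without lean KO library 3 and was lost without each of the other 4 (adjusted p up to 0.132). These comparisons share the lean libraries with the diet comparisons above, so the opposite signs in them are not independent of each other. The fat Treg genes summed to 2958 to 5992 CPM in lean WT and 9082 to 9782 CPM in transferred WT libraries. Of these genes 5 of 6 were higher, as were 4.63% of all genes. In KO they summed to 5388 to 5846 and 9299 to 10123 CPM, with 2 of 6 higher. The class II and dendritic cell genes summed to 69.3 to 95.3 and 29.8 to 32.3 CPM in WT, with 1 of 4 tested lower, as were 5.84% of all genes. Their part in the result was not tested. Transfer libraries also had higher total counts, were from mice of another age and had been through a transfer, and these cannot be told apart.

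Immediate early and stress genes, which are switched on in T cells by the antigen receptor and also by tissue digestion and sorting, moved with these genes. Their summed level over 14 genes was 23274 ± 816 CPM in lean KO libraries and 8569 ± 846 CPM in 16-week KO libraries (SD, n = 3). In WT it was 14546 ± 4548 CPM on lean diet and 11432 ± 1225 CPM after 16 weeks. All lean KO libraries were above all lean WT libraries, as for 5 of the 10 genes. In transferred cells it was 27492 to 35563 CPM in WT and 27365 to 33695 CPM in KO. Of the 14, 11 were lower and none higher in KO cells at 16 weeks against lean diet, where 3.59% of all genes were lower. The median log2 fold change was -1.84 against 0.00 for all genes. Fosb had -2.45, Egr1 -2.80, Fos -2.32 and Jun -1.84, the genes of the AP-1 and EGR families with the smallest p. Between transferred and lean WT cells 10 of 14 were higher, where 4.63% of all genes were. Among them were Btg2 with a log2 fold change of 2.22 and Nr4a1 with 1.22. In KO cells 1 of 14 was higher, where 1.21% of all genes were.

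Across the 22 libraries the summed level of these 14 genes ran with Nfkbia (Pearson's r = 0.96), Nfkbiz (r = 0.96) and Nfkb1 (r = 0.90), and against Relb (r = -0.79) and Nfkb2 (r = -0.47). These r and those that follow are of log2 values. Within groups, after taking off each group's mean, r was 0.81 for Nfkbia, 0.77 for Nfkbiz and 0.43 for Nfkb1. For Relb and Nfkb2 it was 0.00 and 0.16. The libraries share their groups, their sort and their processing, so these are descriptions. The part of handling in the changes of Nfkbia, Nfkbiz and Nfkb1 was not tested.

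**Figure D4:**
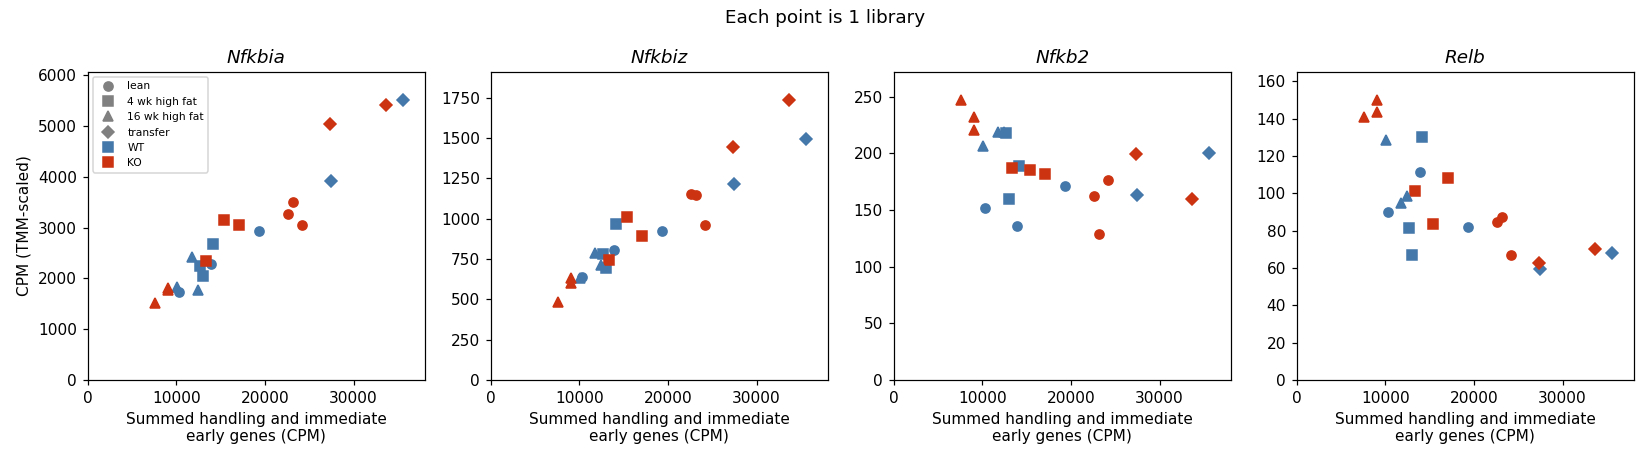
CPM of Nfkbia, Nfkbiz, Nfkb2 and Relb (y axes from 0) against the summed CPM of 14 immediate early and stress genes (x axis) in 22 libraries, with the diet or transfer group as the symbol and WT in blue and KO in red. The axes are linear. Over the 22 libraries Nfkbia and Nfkbiz rise along the x axis (r = 0.96 and 0.96 on log2 values), though not within every group. Relb and Nfkb2 lie highest in 16-week KO libraries, at the low end.

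Some markers of other cells also differed between lean and 16-week KO libraries. The summed level of 4 endothelial genes was 39.4 to 74.8 CPM on lean diet and 116 to 196 CPM at 16 weeks. Of these genes, 2 of the 2 tested passed as higher, as did 2.36% of all genes. Pecam1 made up most of the sum, and the highest level in any library was 2.66 CPM for Cdh5, 13.7 CPM for Kdr and 38.1 CPM for Cldn5. The 6 dendritic cell and MHC class II genes summed to 51.1 to 138 CPM and 109.8 to 178 CPM, with 1 of 4 tested, Cd74, higher by a log2 fold change of 2.11 (edgeR adjusted p = 0.00678). The other 3 tested had negative log2 fold changes that did not pass, -1.10 for H2-Eb1, -0.58 for H2-Aa and -0.19 for H2-Ab1. Of the B cell genes Cd79b was tested, at 18.0, 3.19 and 1.84 CPM in lean KO and 26.3, 17.5 and 14.7 CPM in 16-week KO libraries, which overlapped, with a log2 fold change of 1.26 ± 0.55 (SE, adjusted p = 0.198). The 4 adipocyte genes summed to 2.13 to 4.03 CPM and 10.1 to 53.3 CPM, with 1 of 1 tested higher. The 5 stromal genes summed to 4.25 to 7.35 CPM on lean diet, and at 16 weeks to 117 CPM in KO library 1 and to 3.42 and 3.91 CPM in the others, with none called of 1 tested. Sums of macrophage genes were 10.3 to 16.5 and 5.40 to 15.2 CPM, and of cytotoxic T and NK cell genes 11.0 to 36.2 and 26.7 to 33.1 CPM, none with a call. The mesothelial list summed to 70.4 to 120.2 and 34.2 to 46.0 CPM, also without a call. Nearly all of that sum was Lrrn4, since Upk3b reached at most 0.842 CPM, Msln 0.649 CPM and Krt19 0 in any library. Single markers ranged widely over the 22 libraries. Krt19 was at 0 in all 22, and the highest level of Flt3 was 0.783 CPM, of Cd8a 0.379 CPM, of Msln 0.649 CPM, of Itgax 3.30 CPM and of Hbb-bs, which marks red blood cells, 1.14 CPM. Others were not near 0 in every library, with highest levels of 53.3 CPM for the adipocyte gene Fabp4, 48.2 CPM for Dcn and 38.1 CPM for Col3a1 of the stromal list, 38.1 CPM for the endothelial gene Cldn5, 41.2 CPM for Prf1 and 29.6 CPM for Cd79b. Cd8b1 was at 8.14 to 37.6 CPM, Lrrn4 at 30.1 to 188 CPM and Pecam1 at 36.0 to 157 CPM.

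Relb and Nfkb2 are expressed well in dendritic cells and B cells, and the part of other cells in their rise was not tested. The comparison was also repeated without lean KO library 1, which had the highest class II sum of its group, and 16-week KO library 1, which had the highest stromal and adipocyte sums, an alternative chosen after the data were seen. The latter also had the highest class II sum of its group, 178 CPM. Both libraries had the highest endothelial sums of their groups. Nfkbia, Nfkbiz and Nfkb1 still passed, and 221 genes passed in all against 696. Relb had a log2 fold change of 0.76 (edgeR adjusted p = 0.131) and Nfkb2 of 0.63 (adjusted p = 0.0510), against 0.86 and 0.58 with all libraries. Both libraries were dropped at once and were highest of their groups on several lists, so this run does not test the part of other cells. The genes that mark fat Tregs moved as well, 5 of 6 being lower at 16 weeks in KO cells, where 3.59% of all genes were. Their sum went from 5660 ± 241 CPM to 2678 ± 352 CPM. Of 7 Treg identity genes, 1 (Il2ra) was lower and none was higher. The part of a change in the mix of Tregs was not tested either.

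Upstream of the 10 genes, receptor genes were called in both directions and adaptor genes as higher in KO cells at 16 weeks against lean diet. Of 16 genes for receptors and their proximal adaptors, 3 were higher and 1 lower, where 2.36% of all genes were higher and 3.59% lower. The median log2 fold change of the 16 was 0.37. Il18r1, a chain of the IL-18 receptor, had 1.23 ± 0.22 (SE, edgeR adjusted p = 0.00199). Tnfrsf9, which encodes the co-stimulatory receptor 4-1BB, had 1.15 ± 0.26 (adjusted p = 0.00981), and Tnfrsf1b, which encodes TNF receptor 2, 0.52 ± 0.14 (adjusted p = 0.0272). Il1rl1, the IL-33 receptor and also in the fat Treg list, was lower, -1.25 ± 0.34 (adjusted p = 0.0304). Of 7 TRAF and IAP adaptor genes 2 were higher, Traf2 with 0.67 ± 0.16 and Birc2 with 0.67 ± 0.18, both of which restrain the kinase of the non-canonical route in resting cells.

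Nearer to NF-kB, 3 lists had 1 call each, where 5.95% of all genes were called. Of 11 genes for IkB kinases and their activators, 1 was lower, Map3k8, with a log2 fold change of -0.84 ± 0.23 (SE, edgeR adjusted p = 0.0353), whose kinase is held by the Nfkb1 precursor. Of 11 genes for linear ubiquitin and other brakes, 1 was higher, Tnip1, which works with the Tnfaip3 product, with 0.53 ± 0.15 (adjusted p = 0.0399). Of 5 further IkB-like genes, 1 was lower, Nfkbid, which encodes a nuclear IkB protein, with -0.85 ± 0.20 (adjusted p = 0.0123).

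Downstream, 25 of 28 listed target genes were tested, and 3 were higher and 7 lower, where 2.36% and 3.59% of all genes were. The median log2 fold change of the targets was -0.08. Ltb, a lymphotoxin subunit and a ligand of the non-canonical route, had the smallest p and a log2 fold change of 1.17 ± 0.12 (SE, edgeR adjusted p = 9.58e-06). Irf4, a factor of effector Tregs, had -1.34 ± 0.21 (adjusted p = 0.000659), Il2ra, the IL-2 receptor α chain, -1.13 ± 0.18 (adjusted p = 0.000664) and Gadd45b, a stress gene, -1.30 ± 0.22 (adjusted p = 0.00109). The targets thus moved both ways. In WT cells the same diet comparison called 0.0855% of all genes. Among them were 1 receptor gene, Tnfrsf9 with 1.48 ± 0.26 (edgeR adjusted p = 0.0213), and 1 target gene, Ltb with 0.72 ± 0.12 (adjusted p = 0.0181), both higher. None was called in the other 4 pathway lists described here.

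**Figure D5:**
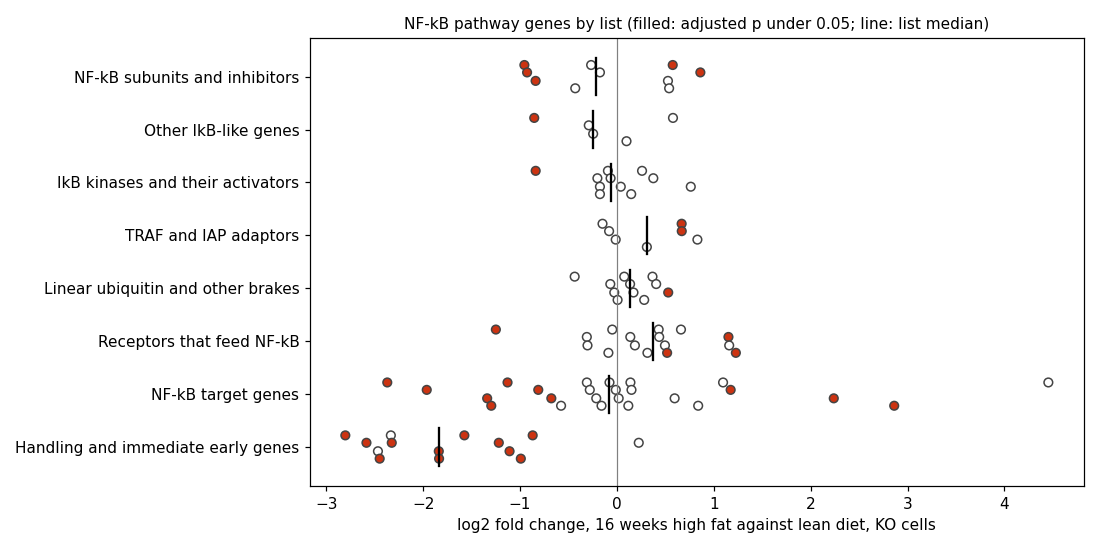
Log2 fold change for 16 weeks of high fat diet against lean diet in KO cells (x axis) of each tested gene (points) in the 10-gene set, 6 further pathway lists and the immediate early and stress list, filled where the adjusted p was under 0.05, with a line at each list's median. Nearly all immediate early genes lie below 0, and receptor and target genes lie on both sides.

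In transferred against lean WT cells, where 10.5% of all genes passed, 7 of 25 tested target genes were higher and 3 lower, with Ccl5 at a log2 fold change of -5.91, Il2ra at 1.23, Junb at 0.74 and Gadd45b at 1.05. Of the receptor list 2 were higher and 2 lower, among them Il18r1 with -2.49 and Tnfrsf1a with -1.95. The brakes had 1 higher and 3 lower, the TRAF and IAP list 2 lower, the IkB kinases 1 higher (Map3k8, 0.90) and the further IkB-like genes 1 higher (Nfkbid, 0.64). In KO cells, where 3.35% of all genes passed, 1 target was higher (Il2ra, 1.10) and 3 were lower, 2 receptors were lower, the brakes had 1 higher and 1 lower, the TRAF and IAP list had 1 lower, and the IkB kinases and the further IkB-like genes had none. In KO against WT cells no gene of these 6 pathway lists passed under any diet, on average or after transfer.

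The genes most like each of the 10 were sought over the 18 diet libraries among 8276 genes, by Pearson's r of log2 CPM and as a description. Nfkbia and Nfkbiz were both most like Junb, an AP-1 gene (r = 0.96 and 0.95), then like Gadd45b (r = 0.95) and Cd69 (r = 0.93). Nfkb1 was most like Ywhaz (r = 0.93) and Tagln2 (r = 0.92). Nfkb2 was most like Dusp4 (r = 0.83) and Dbt (r = 0.81), and Relb like Id3 (r = 0.88) and Btla (r = 0.86). Nfkbie was most like Serpinb9 (r = 0.86) and H2-DMa (r = 0.81), and Rel like H2-Oa (r = 0.81) and Aig1 (r = 0.80). Tnfaip3 was most like Ccdc82 (r = 0.87) and Chd4 (r = 0.87), Nfkbib like Dad1 (r = 0.81) and Oaz1 (r = 0.81), and Rela like Gnl1 (r = 0.78) and Pkd1 (r = 0.73).

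Among the 10 genes themselves, Nfkbia and Nfkbiz ran closest over the 18 diet libraries (r = 0.96, and 0.91 within groups), followed by Nfkb1 and Nfkbia (r = 0.88, and 0.62 within groups). Nfkb1 and Nfkbie ran in opposite directions (r = -0.68). Nfkb1 and Nfkb2 also did (r = -0.58), though within groups their r was -0.01. These correlations were also taken on log2 CPM, and their points share their groups, libraries and scaling.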

How the data were processed

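Polyadenylated RNA of 1000 sorted cells a library was copied from an oligo(dT) primer, PCR-amplified, cut by a transposase and read as pairs of 38 bases, per the labels' protocols. Per the submitters' processing notes, STAR 2.7.3a (mm10) and featureCounts made the gene counts, and whether strand was used in counting is not given in the sources used here. Values in the deposited table are whole-number counts per gene, and nothing in them shows a scaling by the authors. PCR copies are counted apart, so floors of 3 counts cover counting error only.

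From these counts, edgeR 4.0.16 (R 4.3.3, limma 3.58.1) gave quasi-likelihood F tests after TMM scaling and a low-count filter (filterByExpr, minimum count 10), with Benjamini-Hochberg adjustment over all genes tested and a threshold of 0.05. The 18 diet libraries were fitted together, the 4 transfer libraries alone for KO against WT, and all 22 for transferred against lean cells, in 16 comparisons in all. SE was the log2 fold change divided by the square root of F. No pair of libraries of the same group was a duplicate within counting error, and pairs across groups were not checked. Alternatives were RLE scaling, library size only, no filter, DESeq2 1.42.0, the replicate number as a block, other sets of libraries in a fit, and leaving out each library. The code was tested on simulated data.

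Same-numbered libraries deviated together (r over 0.1 in all 3 pairs, 0.139 to 0.210) only for 4-week and 16-week KO cells. Differently numbered lean and 4-week KO libraries reached r = 0.361, so such values do not show pairing. The labels do not say that the numbers pair samples, and the main tests used no pairing. The 10 genes, the 20 gene lists and the tests were chosen with earlier results of these data known. Results of 1 of these lists and the sum of another are not reported here. Text names all 10 genes, up to 4 genes of each other list by smallest p among those past the threshold, the 2 most alike genes by Pearson's r, and Foxp3 and Arntl as checks. Markers of other cells that passed no threshold were named after their values were seen. Promoter letters came from RefSeq (GRCm38.p6). The 250 bases before each start site were searched with the kB consensus decamer, its looser form and the E-box CACGTG on both strands, and Nfkb1, Relb and Nfkbiz had no entry.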

Additional observations from a re-analysis of the deposited data

How the results depend on the processing

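The results on the 10 genes kept their direction in every alternative run wherever they had passed the threshold. All 5 genes called in KO cells at 16 weeks against lean diet also passed with RLE scaling, library size only, no filter, DESeq2, the replicate block and all 22 libraries in 1 fit. With no filter, the number of the 10 genes past the threshold was 2 (from 0) for KO against WT on lean diet, 2 (from 0) for 16 weeks against lean in WT, 2 (from 0) for the interaction at 16 weeks against lean, 1 (from 0) for the interaction at 16 against 4 weeks and 4 (from 2) for transferred against lean in KO, and the number of all genes past it was 135 (from 5) for KO against WT on lean diet, 75 (from 8) for KO against WT at 4 weeks, 428 (from 5) for KO against WT at 16 weeks, 273 (from 21) for KO against WT over the diets, 102 (from 20) for KO against WT after transfer, 40 (from 0) for 4 weeks against lean in WT, 112 (from 0) for 4 weeks against lean in KO, 178 (from 10) for 16 weeks against lean in WT, 1085 (from 696) for 16 weeks against lean in KO, 96 (from 0) for 16 against 4 weeks in WT, 638 (from 192) for 16 against 4 weeks in KO, 22 (from 0) for the interaction at 4 weeks against lean, 258 (from 0) for the interaction at 16 weeks against lean, 211 (from 0) for the interaction at 16 against 4 weeks and 698 (from 419) for transferred against lean in KO. With DESeq2 the number of all genes was 24 (from 5) for KO against WT on lean diet, 47 (from 5) for KO against WT at 16 weeks, 38 (from 21) for KO against WT over the diets, 61 (from 20) for KO against WT after transfer, 13 (from 0) for 4 weeks against lean in KO, 59 (from 10) for 16 weeks against lean in WT, 21 (from 0) for 16 against 4 weeks in WT, 346 (from 192) for 16 against 4 weeks in KO, 26 (from 0) for the interaction at 16 weeks against lean, 1 (from 0) for the interaction at 16 against 4 weeks and 640 (from 419) for transferred against lean in KO. With only the 6 libraries of a diet in the fit it was 10 (from 5) for KO against WT on lean diet and 50 (from 5) for KO against WT at 16 weeks, and with all 22 libraries in 1 fit 37 (from 20) for KO against WT after transfer. The cause of these differences was not tested.

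Leaving out 1 library at a time, the number of the 10 genes past the threshold was 0 to 3 for 16 against 4 weeks in KO and 0 to 1 for transferred against lean in KO, and the number of all genes was 4 to 11 for KO against WT on lean diet, 4 to 6 for KO against WT at 4 weeks, 4 to 35 for KO against WT at 16 weeks, 3 to 28 for 16 weeks against lean in WT, 373 to 514 for 16 weeks against lean in KO, 0 to 3 for 16 against 4 weeks in WT, 32 to 175 for 16 against 4 weeks in KO, 0 to 36 for the interaction at 16 weeks against lean, 0 to 3 for the interaction at 16 against 4 weeks, 490 to 1314 for transferred against lean in WT and 121 to 272 for transferred against lean in KO. Without the first KO library of both groups, chosen after the data were seen, the number of the 10 genes was 3 (from 5) for 16 weeks against lean in KO, and that of all genes was 221 (from 696) for 16 weeks against lean in KO. Fewer libraries also leave fewer degrees of freedom in these fits.

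With the replicate number as a block, the number of all genes was 5 (from 8) for KO against WT at 4 weeks and 40 (from 20) for KO against WT after transfer. For 16 against 4 weeks in KO, the block gave 193 genes against 192 and kept all 3 calls among the 10 genes. For the other pairs of groups the deviations of same-numbered libraries correlated at -0.240 to 0.209. The labels do not say that the numbers pair libraries in any pair of groups. The block changed 1 other call among the 10 genes, Nfkbiz in transferred against lean KO cells, which passed with a log2 fold change of 0.61.

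Depth did not limit the 10 genes, since the lowest level of any of them in a library was far above 3 counts, while several marker genes of other cells were under that floor. With 2 or 3 libraries a group, the number of libraries limited the precision.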

Other observations

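The 6-base E-box CACGTG, the element bound by the dimer of the Arntl and Clock products, was in the start-site window of 1 of the 7 genes with a RefSeq entry, Tnfaip3, against 6.86% of the 27025 genes in that table. It lay at positions -33 to -28 from the start site and is its own reverse complement, so it reads on both strands. Tnfaip3 was at 3422, 1981 and 3338 CPM in lean WT and at 3265, 2865 and 2242 CPM in lean KO libraries, which overlapped. Its log2 fold change in KO against WT cells over the 3 diets was 0.06 ± 0.12 (SE, edgeR adjusted p = 0.950), and after transfer it was -0.03 ± 0.13 (adjusted p = 0.991). All libraries were taken at ZT0, so a change in the timing of its expression could not be seen here.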
